A study of Mus musculus with 9 samples.

Results

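Ltf, Lcn2, Camp, Ngp, Mmp8, Mmp9, S100a8, S100a9, Retnlg and Cd177 are mouse genes whose products fill the later granules, the cytosol or the surface of maturing neutrophils. These 10 genes, chosen by name and each read by 1 probe set that the platform annotation gives to that symbol alone, were compared among 19938 measured genes. All 10 were measured, and none had a further probe set of its own to choose from. The cells were BaF3, a mouse haematopoietic line that depends on interleukin 3, infected with a retrovirus that carried a fusion gene and sorted for EGFP fluorescence. FGFR1OP-RET cells carried a fusion of FGFR1OP to the receptor tyrosine kinase RET, BCR-RET cells carried BCR joined to RET, and BCR-ABL cells carried BCR joined to the tyrosine kinase ABL in the form the series calls P210. Each group had 3 arrays of total RNA on the Affymetrix MouseGene 1.0 ST chip. All 9 arrays share the infection and the EGFP sort. Cells without a fusion gene were not analysed here, so each value is relative to another fusion. The labels do not say whether a group came from 1 infection or several, or whether its 3 arrays are separate cultures, and the spread that the p-values rest on may therefore be technical. The species and the breakpoints of the fused genes were not given in the sources used here.

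Neutrophils load their granules in sequence as they mature. The primary granules with myeloperoxidase and serine proteases are made in promyelocytes, the secondary granules with lactoferrin, lipocalin 2 and cathelicidin follow in myelocytes, and gelatinase granules and abundant cytosolic S100 proteins come later. C/EBP epsilon is a transcription factor that mice need for normal expression of secondary granule genes. Lactoferrin (Ltf) binds iron and lipocalin 2 (Lcn2) binds bacterial siderophores. Camp encodes the cathelicidin antimicrobial peptide precursor and Ngp a related granule protein. Mmp8 is neutrophil collagenase and Mmp9 is gelatinase B. S100a8 and S100a9 form the calcium-binding dimer calprotectin, Retnlg is a secreted resistin-like protein, and Cd177 is a surface glycoprotein of neutrophils.

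The 9 arrays were alike in overall distribution, with medians of 8.01 to 8.04 on the log2 scale of RMA (robust multi-array average, a background-corrected and quantile-normalised summary of each probe set). Quantile normalisation forces the arrays to 1 distribution, so a change shared by most genes would not be visible. Arrays of 1 group correlated across genes at Pearson r of 0.993 to 0.996, and arrays of different groups at 0.989 to 0.996. The deposited values carry no detection calls, so no gene could be called present or absent, and levels of different genes are not set against each other. Differences below are in log2 units, and a gene passed when its limma p, adjusted by Benjamini-Hochberg over all 19938 genes, was under 0.05. In such bulk RNA, more cells that express a gene and more of its RNA per cell cannot be told apart.

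In FGFR1OP-RET cells Mmp8 and S100a9 rose against BCR-ABL cells, and Mmp9 rose against BCR-RET cells. Camp and Cd177 differed least in the comparison of FGFR1OP-RET with BCR-ABL cells. None of the 10 passed between BCR-RET and BCR-ABL cells unless the fit was changed. The order of the group means was FGFR1OP-RET, then BCR-RET, then BCR-ABL for 4 genes, Lcn2, Mmp8, S100a8 and S100a9. BCR-RET came first, then FGFR1OP-RET, then BCR-ABL, for 3 genes, Ltf, Ngp and Retnlg. Camp and Cd177 had BCR-RET first and FGFR1OP-RET last, and Mmp9 was the 1 gene with FGFR1OP-RET first and BCR-RET last. The range over the 9 arrays was widest for Mmp8 (2.04) and Mmp9 (2.01) and narrowest for Cd177 (0.50) and Camp (0.17).

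**Figure D1:**
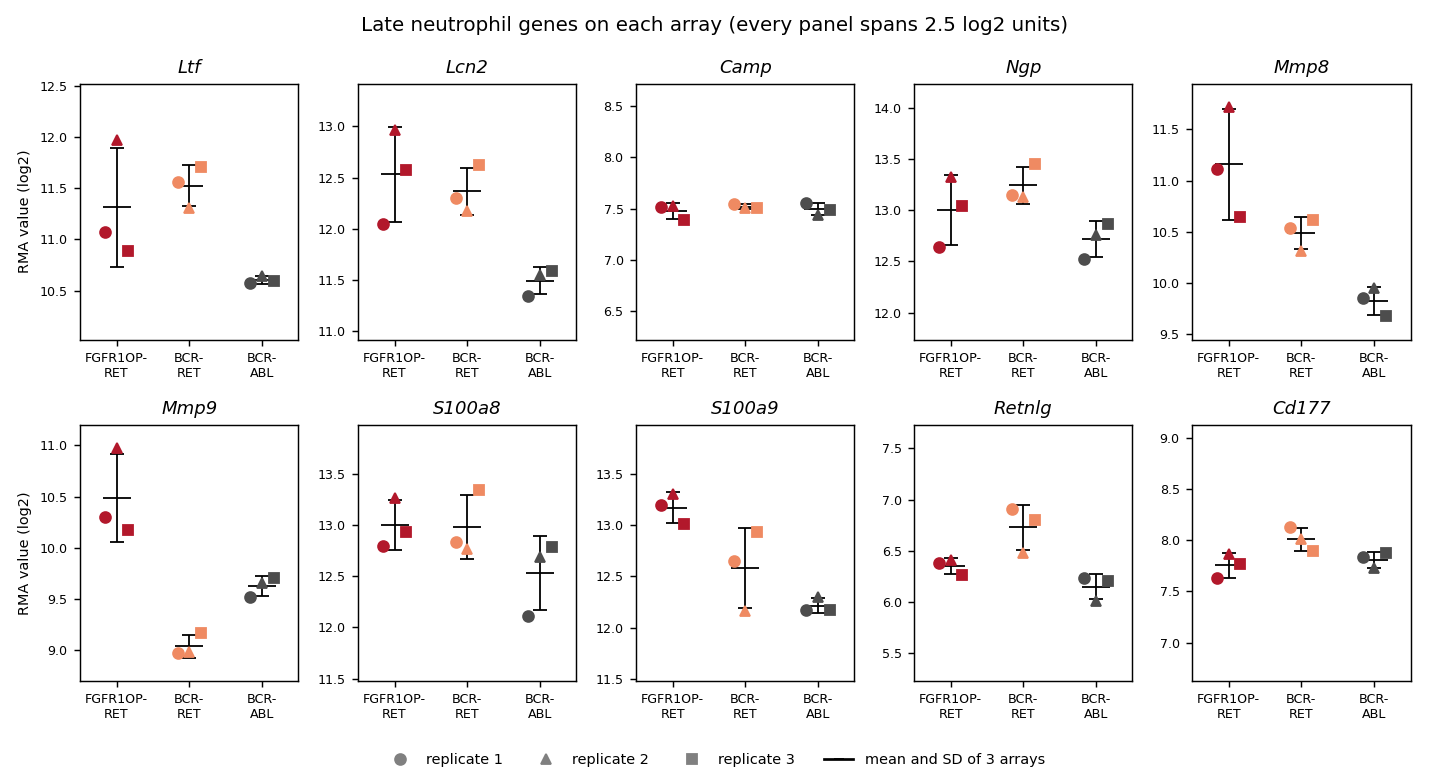
RMA values (log2, vertical axes) of the 10 genes on each array of FGFR1OP-RET, BCR-RET and BCR-ABL cells, with the mean and SD of 3 arrays as bars. Mmp9 is highest in FGFR1OP-RET cells (10.18 to 10.98) and lowest in BCR-RET cells (8.97 to 9.17), while Camp lies between 7.39 and 7.56 on all 9 arrays.

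The start regions of 4 genes are shown because their readings differed: Mmp8 and S100a9 passed against BCR-ABL cells, Lcn2 lay just outside the threshold, and Camp was nearly level. Camp read 7.39 to 7.56, below the median of every array, and without detection calls a lack of signal could look the same. RefSeq promoters (GRCm38.p6) matched 9 of the 10 symbols by name, all but Mmp9, so no count below covers Mmp9. The 250 bases before each annotated start were searched on both strands. Capitals mark matches to TTNNGNAA, a pattern that C/EBP factors bind. The Mmp8 region is chr9:7558179-7558428 on the plus strand, with matches that begin 151 and 19 bases before the start. The S100a9 region is chr3:90695722-90695971 on the minus strand, with matches 236 and 130 bases before the start. The Lcn2 region is chr2:32387740-32387989 on the minus strand, with a match 216 bases before the start. The Camp region is chr9:109849457-109849706 on the minus strand and has no match.
Mmp8: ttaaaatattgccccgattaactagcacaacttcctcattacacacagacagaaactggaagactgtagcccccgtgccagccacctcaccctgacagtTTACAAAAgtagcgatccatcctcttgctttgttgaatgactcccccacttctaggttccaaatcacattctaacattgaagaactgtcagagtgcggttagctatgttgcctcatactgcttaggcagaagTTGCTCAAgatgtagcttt
S100a9: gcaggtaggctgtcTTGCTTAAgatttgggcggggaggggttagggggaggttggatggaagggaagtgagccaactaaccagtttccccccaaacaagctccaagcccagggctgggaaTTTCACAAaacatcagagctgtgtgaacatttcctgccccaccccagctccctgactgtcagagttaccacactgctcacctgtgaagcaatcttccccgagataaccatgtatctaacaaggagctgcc
Lcn2: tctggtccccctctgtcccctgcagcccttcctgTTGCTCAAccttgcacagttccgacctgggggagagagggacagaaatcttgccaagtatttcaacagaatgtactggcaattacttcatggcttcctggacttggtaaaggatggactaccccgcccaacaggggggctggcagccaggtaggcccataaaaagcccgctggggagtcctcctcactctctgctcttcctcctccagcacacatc
Camp: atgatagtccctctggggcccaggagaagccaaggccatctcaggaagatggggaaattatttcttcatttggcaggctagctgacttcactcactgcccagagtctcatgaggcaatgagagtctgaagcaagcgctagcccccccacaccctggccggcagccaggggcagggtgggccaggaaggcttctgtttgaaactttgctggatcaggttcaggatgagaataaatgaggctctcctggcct
Of the 9 matched promoters, 8 held the pattern, all but that of Camp, and 36.8% of the 32851 RefSeq promoters of the same length held it too. Cd177, also nearly level between FGFR1OP-RET and BCR-ABL cells, had a match 55 bases before its start. Ngp, which did not pass there, had matches 138, 102 and 11 bases before its start. Whether a match goes with a change in RNA was not tested. TGANTCA, the pattern of AP-1, was in 0 of the 9, against 6.75% of all promoters. TTCNNNGAA, the pattern of STAT factors, was in 0 of the 9, against 7.02% of all promoters. The NF-kB consensus was in 0 of the 9, against 3.9% of all promoters. No matches overlapped. A match is a stretch of letters and does not show binding.

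In the comparison of FGFR1OP-RET with BCR-ABL cells, 2 of the 10 genes passed, both higher, where 1.02% of all genes passed (0.787% higher and 0.231% lower). The 3 FGFR1OP-RET arrays lay above the 3 BCR-ABL arrays without overlap for 7 of the 10, where 6.94% of all genes did so. None lay wholly below, against 5.13% of all genes, and 12.1% of all genes were apart in either direction. The 7 were Ltf, Lcn2, Mmp8, Mmp9, S100a8, S100a9 and Retnlg. The median difference of the 10 genes was 0.59 and that of all genes 0.0015. An unadjusted p under 0.05 was reached by 6 of the 10, against 9.75% of all genes.

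Mmp8, the collagenase, read 11.12, 11.72 and 10.64 on FGFR1OP-RET replicates 1, 2 and 3, 10.54, 10.31 and 10.61 on BCR-RET arrays, and 9.85, 9.95 and 9.68 on BCR-ABL arrays. The 3 groups did not overlap, though the lowest FGFR1OP-RET array lay just above the highest BCR-RET array. Mmp8 rose by 1.33 ± 0.22 (SE, n = 3 arrays a group, limma adjusted p = 0.0249) in FGFR1OP-RET against BCR-ABL cells, a 2.52-fold difference with a 95% interval of 0.84 to 1.83 in log2. The call was lost without any 1 of 5 arrays. Omitting BCR-ABL replicate 1, 2 or 3 gave an adjusted p of 0.0925, 0.104 or 0.115. Omitting BCR-RET replicate 2 gave 0.0504, and omitting FGFR1OP-RET replicate 1 gave 0.0640. The difference itself stayed between 1.05 and 1.59 whichever of the 9 arrays was left out. Against BCR-RET cells Mmp8 was 0.67 ± 0.22 higher in FGFR1OP-RET cells and did not pass (adjusted p = 0.216). Omitting 1 array at a time moved that difference between 0.39, without FGFR1OP-RET replicate 2 (adjusted p = 0.314), and 0.93, without FGFR1OP-RET replicate 3, where it passed (adjusted p = 0.0469).

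Mmp9, the gelatinase, read 10.30, 10.98 and 10.18 on FGFR1OP-RET arrays, 8.97, 8.98 and 9.17 on BCR-RET arrays, and 9.52, 9.65 and 9.71 on BCR-ABL arrays. All 3 groups were separate, with BCR-RET cells lowest. Mmp9 was 0.86 ± 0.18 higher in FGFR1OP-RET than in BCR-ABL cells, just outside the threshold (limma adjusted p = 0.0637, 95% interval 0.46 to 1.25). That difference passed without FGFR1OP-RET replicate 2 (0.61, adjusted p = 0.0291) or replicate 3 (1.01, adjusted p = 0.0388), and in a fit blocked on replicate number (adjusted p = 0.0180). The block pairs arrays by number, though FGFR1OP-RET arrays were not taken as paired. Against BCR-RET cells Mmp9 rose by 1.44 ± 0.18 in FGFR1OP-RET cells (n = 3 arrays a group, limma adjusted p = 0.00591), a 2.72-fold difference with an interval of 1.05 to 1.84. It held without each of the 9 arrays in turn, at adjusted p of 0.00209 to 0.0386 and differences of 1.20 to 1.60. With only the 6 arrays of these 2 groups in the fit, its adjusted p was 0.0622.

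S100a9, a subunit of calprotectin, read 13.20, 13.30 and 13.01 on FGFR1OP-RET arrays, 12.65, 12.17 and 12.93 on BCR-RET arrays, and 12.17, 12.30 and 12.17 on BCR-ABL arrays. FGFR1OP-RET arrays were above all others, while BCR-RET and BCR-ABL arrays overlapped. S100a9 rose by 0.96 ± 0.16 in FGFR1OP-RET against BCR-ABL cells (n = 3 arrays a group, limma adjusted p = 0.0278), a 1.94-fold difference with an interval of 0.59 to 1.32. Omitting BCR-ABL replicate 1, 2 or 3 gave an adjusted p of 0.109, 0.119 or 0.119, and omitting FGFR1OP-RET replicate 1 or 2 gave 0.0823 or 0.146, so the call was lost each time. The difference ranged from 0.89 to 1.04 over the 9 omissions. Against BCR-RET cells it was 0.59 ± 0.16 higher in FGFR1OP-RET cells (adjusted p = 0.145), and 0.38 higher without BCR-RET replicate 2.

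S100a8, its partner in the dimer, lies next to S100a9 on chromosome 3 with 0 protein-coding genes between them in RefSeq. It read 12.80, 13.27 and 12.94 on FGFR1OP-RET arrays, 12.83, 12.77 and 13.34 on BCR-RET arrays, and 12.12, 12.69 and 12.78 on BCR-ABL arrays. FGFR1OP-RET and BCR-RET arrays overlapped fully, and the lowest FGFR1OP-RET array was just above the highest BCR-ABL array. S100a8 was 0.47 ± 0.21 higher in FGFR1OP-RET than in BCR-ABL cells and did not pass (limma adjusted p = 0.501, interval 0.01 to 0.93). That difference was 0.27 without BCR-ABL replicate 1, the lowest of its group. Between FGFR1OP-RET and BCR-RET cells its difference was 0.02 ± 0.21 (adjusted p = 0.977). Whether S100a8 and S100a9 differed from each other in their change was not tested.

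Lcn2, the siderophore binder, read 12.05, 12.97 and 12.58 on FGFR1OP-RET arrays, 12.30, 12.17 and 12.62 on BCR-RET arrays, and 11.34, 11.55 and 11.59 on BCR-ABL arrays. Both RET fusions were above BCR-ABL on every array and overlapped each other. Lcn2 was 1.04 ± 0.20 higher in FGFR1OP-RET than in BCR-ABL cells (2.05-fold, interval 0.58 to 1.50), just outside the threshold (limma adjusted p = 0.0533). It passed without FGFR1OP-RET replicate 1 (1.28, adjusted p = 0.0118). The difference between FGFR1OP-RET and BCR-RET cells was 0.16 ± 0.20 (adjusted p = 0.748) and ran from -0.055, without FGFR1OP-RET replicate 2, to 0.41, without FGFR1OP-RET replicate 1.

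Ltf, lactoferrin, read 11.08, 11.98 and 10.89 on FGFR1OP-RET arrays, 11.56, 11.31 and 11.70 on BCR-RET arrays, and 10.58, 10.65 and 10.59 on BCR-ABL arrays. Again both RET fusions lay above BCR-ABL on every array, with FGFR1OP-RET replicate 2 well above its fellows. Ltf was 0.71 ± 0.23 higher in FGFR1OP-RET than in BCR-ABL cells and did not pass (limma adjusted p = 0.319). The difference was 0.38 without FGFR1OP-RET replicate 2.

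Ngp, the cathelicidin-related granule protein, read 12.64, 13.32 and 13.05 on FGFR1OP-RET arrays, 13.15, 13.13 and 13.45 on BCR-RET arrays, and 12.52, 12.76 and 12.86 on BCR-ABL arrays. FGFR1OP-RET arrays overlapped both other groups. Camp, the cathelicidin precursor, read 7.51, 7.52 and 7.39 on FGFR1OP-RET arrays, 7.55, 7.50 and 7.51 on BCR-RET arrays, and 7.56, 7.44 and 7.49 on BCR-ABL arrays. All 3 groups overlapped. Camp differed by -0.02 ± 0.05 between FGFR1OP-RET and BCR-ABL cells, with an interval of -0.14 to 0.10 (limma adjusted p = 0.939). Ngp was 0.29 ± 0.16 higher there (adjusted p = 0.626), with 0.13 without FGFR1OP-RET replicate 2, 0.19 without BCR-ABL replicate 1 and 0.47 without FGFR1OP-RET replicate 1. Camp, Ngp and Ltf lie on chromosome 9, with 8 protein-coding genes between Camp and Ngp and 20 between Ngp and Ltf in RefSeq.

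Retnlg, the resistin-like protein, read 6.38, 6.41 and 6.26 on FGFR1OP-RET arrays, 6.90, 6.48 and 6.80 on BCR-RET arrays, and 6.23, 6.01 and 6.21 on BCR-ABL arrays. The groups did not overlap, with BCR-RET highest. Cd177, the surface glycoprotein, read 7.63, 7.87 and 7.76 on FGFR1OP-RET arrays, 8.13, 8.01 and 7.89 on BCR-RET arrays, and 7.83, 7.72 and 7.87 on BCR-ABL arrays. Its BCR-RET arrays lay just above the others, which overlapped. Against BCR-ABL cells, FGFR1OP-RET cells differed by 0.20 ± 0.11 for Retnlg (limma adjusted p = 0.603; 0.13 without BCR-ABL replicate 2) and by -0.06 ± 0.08 for Cd177 (adjusted p = 0.880).

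In the comparison of BCR-RET with BCR-ABL cells, which uses the same BCR-ABL arrays, 0 of the 10 genes passed the limma test, where 0.587% of all genes passed (0.371% higher and 0.216% lower). An unadjusted p under 0.05 was reached by 8 of the 10, 7 higher and 1 lower, against 11.4% of all genes. BCR-RET arrays lay wholly above BCR-ABL arrays for 6 of the 10 (Ltf, Lcn2, Ngp, Mmp8, Retnlg and Cd177), where 10.7% of all genes did so. They lay wholly below for 1 gene, Mmp9, where 5.9% of all genes did so, and 16.6% were apart in either direction. The median difference of the 10 genes was 0.49 and that of all genes 0.03.

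Here the replicate numbers were taken as pairs. The labels state no pairing, and the choice rests on correlations of 0.617, 0.155 and 0.367 in these same data. With the number as a block in the fit of all 9 arrays, FGFR1OP-RET included, Lcn2 and Retnlg rose, 2 of the 10, where 1.82% of all genes passed. Retnlg was 0.58 higher in BCR-RET cells, at limma adjusted p = 0.0113 with the block and 0.0574 without it. Lcn2 was 0.87 higher, at adjusted p = 0.0272 with the block and 0.140 without it. In a fit of the 6 paired arrays alone with the block, added after these results were seen, 6 of the 10 passed, where 1.89% of all genes did. Ltf (adjusted p = 0.00602), Lcn2 (0.00640), Ngp (0.0153), Mmp8 (0.0342) and Retnlg (0.00640) were higher and Mmp9 (0.00491) was lower in BCR-RET cells. Without the block, Retnlg also passed without BCR-RET replicate 2 (adjusted p = 0.0217) and Lcn2 without FGFR1OP-RET replicate 1 (adjusted p = 0.0439). Retnlg passed too with a trended and robust spread (0.0495), with median centring (0.0480) and with repeated quantile normalisation (0.0368).

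Ltf was 0.92 ± 0.23 higher in BCR-RET than in BCR-ABL cells (interval 0.39 to 1.45) and did not pass without a block (limma adjusted p = 0.182). It passed without FGFR1OP-RET replicate 2, which enters through the shared spread alone (adjusted p = 0.0129). Mmp8 was 0.66 ± 0.22 higher (adjusted p = 0.304), against 1.33 in FGFR1OP-RET cells. Mmp9 ran the other way in BCR-RET cells, at -0.59 ± 0.18 (interval -0.98 to -0.19, adjusted p = 0.261). It too passed without FGFR1OP-RET replicate 2 (adjusted p = 0.0290). Ngp was 0.53 ± 0.16 higher (adjusted p = 0.284), S100a8 0.45 ± 0.21 (adjusted p = 0.448) and S100a9 0.37 ± 0.16 (adjusted p = 0.435). The S100a8 difference was 0.25 without BCR-ABL replicate 1 and 0.27 without BCR-RET replicate 3. The S100a9 difference was 0.19 without BCR-RET replicate 3 and 0.58 without BCR-RET replicate 2. Cd177 was 0.20 ± 0.08 higher (adjusted p = 0.389), and Camp differed by 0.03 ± 0.05 (adjusted p = 0.877).

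**Figure D2:**
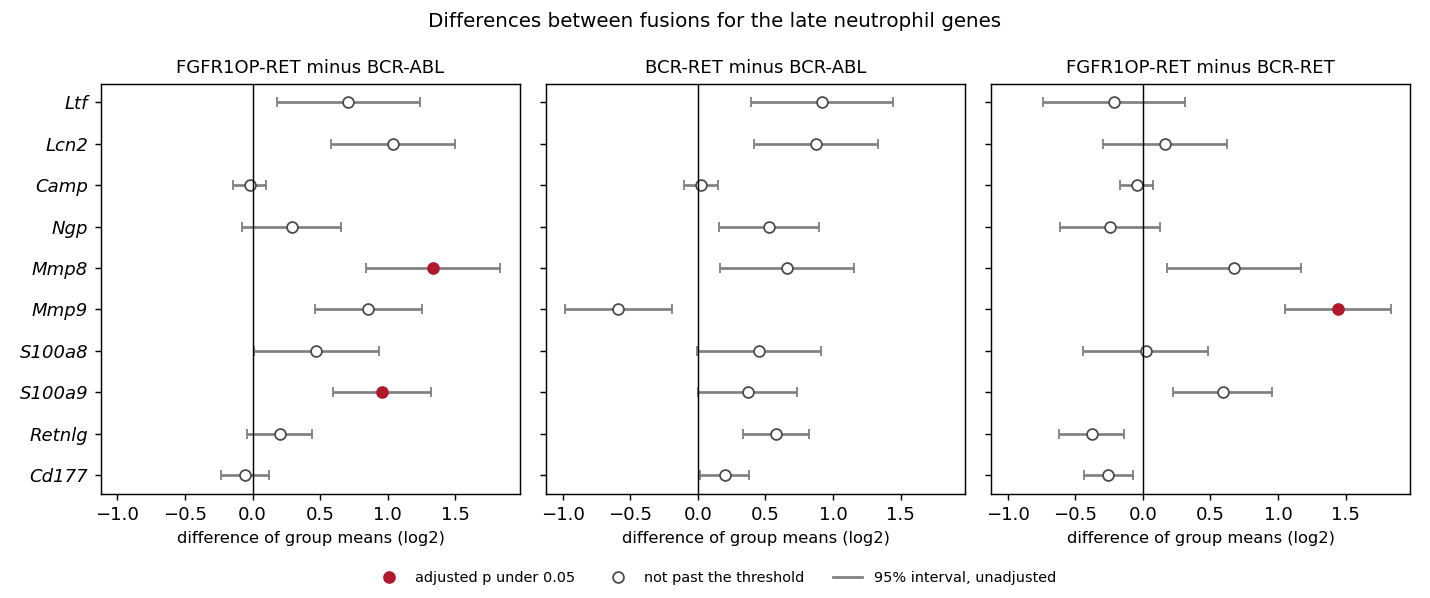
Log2 differences (horizontal axis) of the 10 genes with their 95% intervals in the 3 comparisons, filled where the limma adjusted p was under 0.05. Mmp8 and S100a9 passed for FGFR1OP-RET minus BCR-ABL, and Mmp9 passed for FGFR1OP-RET minus BCR-RET.

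Between the RET fusions, FGFR1OP-RET against BCR-RET, 1 of the 10 genes passed, Mmp9, where 1.33% of all genes passed (0.853% higher and 0.476% lower). The 2 groups did not overlap for 5 of the 10, where 15.3% of all genes did so. Mmp8, Mmp9 and S100a9 were higher in FGFR1OP-RET cells on every array, as were 6.49% of all genes, and Retnlg and Cd177 were lower on every array, as were 8.77% of all genes. Retnlg differed by -0.38 ± 0.11 (limma adjusted p = 0.156) and Cd177 by -0.25 ± 0.08 (adjusted p = 0.196). Ltf, Ngp and Camp were at -0.21, -0.24 and -0.05, with adjusted p of 0.716, 0.533 and 0.734. The Ltf difference ran from -0.54, without FGFR1OP-RET replicate 2, to 0.0009, without FGFR1OP-RET replicate 3. The Ngp difference ran from -0.40, without FGFR1OP-RET replicate 2, to -0.06, without FGFR1OP-RET replicate 1. The median difference of the 10 genes was -0.01 and that of all genes -0.03.

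FGFR1OP-RET replicate 2 was the highest array of its group for 10 of the 10 genes, where it was highest for 36.7% of all genes. BCR-RET replicate 3 was the highest of its group for 7 of the 10, against 22.2% of all genes, and BCR-RET replicate 2 was the lowest for 8, against 21.0% of all genes. Among BCR-ABL arrays, replicate 1 was the lowest for 6 of the 10, against 36.2% of all genes, and the highest array was replicate 1, 2 or 3 for 2, 3 and 5 of them. The median SD of the 10 genes was 0.29 in FGFR1OP-RET, 0.19 in BCR-RET and 0.11 in BCR-ABL cells. The median SD of all genes was 0.086, 0.077 and 0.069 in the same groups. Without FGFR1OP-RET replicate 2 the median difference of the 10 genes from BCR-ABL cells was 0.36 in place of 0.59. Mmp8 and Mmp9 then passed and S100a9 did not (adjusted p = 0.146).

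**Figure D3:**
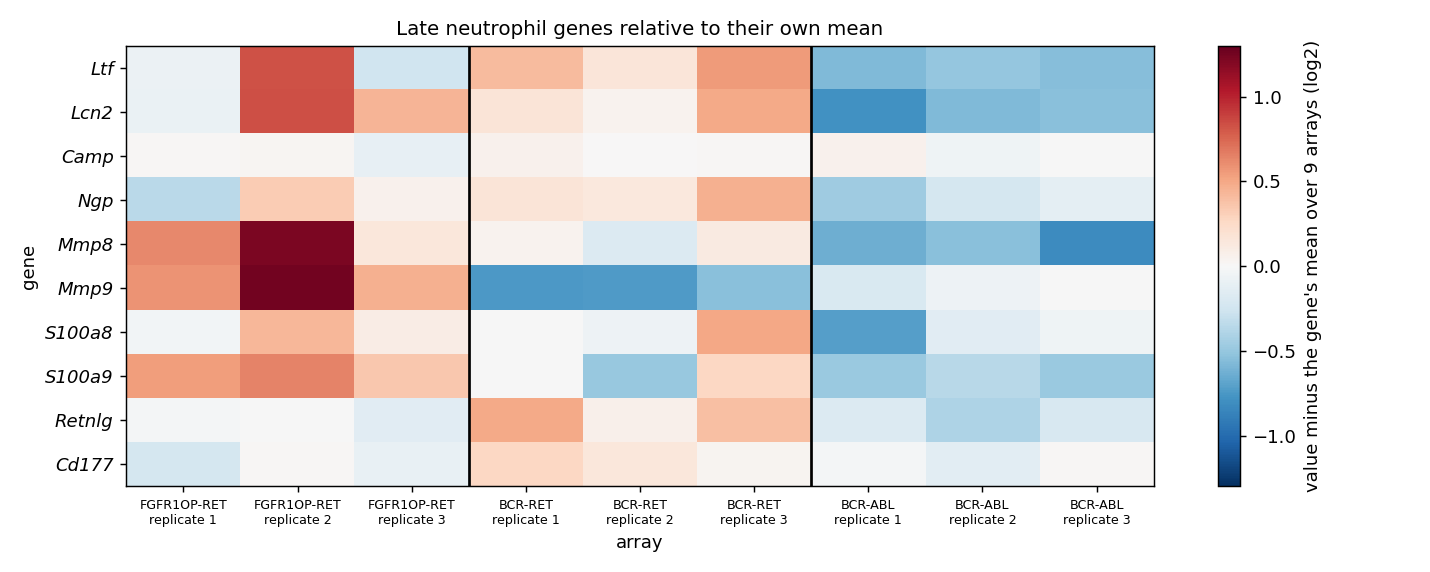
Value of each gene on each array minus its mean over the 9 arrays (log2, colour scale). FGFR1OP-RET replicate 2 holds the highest value of its group in all 10 rows, and the Camp row is nearly flat, with a range of 0.17.

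By a fixed measure, the mean absolute difference of values centred per gene over the 9 arrays, the genes nearest to Mmp9 were Lilrb4a (0.11), Lilr4b (0.15) and Cd14 (0.15), where the median over other genes was 0.53. Nearest to Mmp8 were Ifi27 (0.20), Lyz2 (0.21) and Thbs1 (0.22), with a median of 0.49. Nearest to S100a9 were Ifi27 (0.15), Hsd11b1 (0.15) and Adam8 (0.15), with a median of 0.42. These are likenesses over 9 arrays of 3 groups and share each array's preparation.

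Of 19 other late granule and cytosol genes, 15 were measured. Adam8, a membrane protease that neutrophils carry, was the 1 gene to pass against BCR-ABL cells, 0.85 ± 0.08 higher in FGFR1OP-RET cells (limma adjusted p = 0.00182), and it held without each of the 9 arrays. Adam8 was also 0.50 ± 0.08 higher in FGFR1OP-RET than in BCR-RET cells (adjusted p = 0.0175). That call was lost without FGFR1OP-RET replicate 2 (adjusted p = 0.0630), BCR-RET replicate 2 (0.0744) or BCR-RET replicate 3 (0.0654). With the replicate block its limma adjusted p was 0.00297, though FGFR1OP-RET arrays were not taken as paired by number. Between BCR-RET and BCR-ABL cells 0 of the 15 passed with limma, and 7 had an unadjusted p under 0.05, against 11.4% of all genes. The medians of the 15 were 0.39 for FGFR1OP-RET minus BCR-ABL, 0.35 for BCR-RET minus BCR-ABL and -0.05 for FGFR1OP-RET minus BCR-RET.

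Cebpe, which encodes C/EBP epsilon, rose in FGFR1OP-RET cells. It read 10.87, 11.01 and 11.15 on FGFR1OP-RET arrays, 10.21, 10.31 and 10.32 on BCR-RET arrays, and 10.09, 10.12 and 10.34 on BCR-ABL arrays. FGFR1OP-RET arrays lay above all others, which overlapped. The difference was 0.83 ± 0.09 from BCR-ABL cells (n = 3 arrays a group, limma adjusted p = 0.00307) and 0.73 ± 0.09 from BCR-RET cells (adjusted p = 0.00591), and both held without each of the 9 arrays. Between BCR-RET and BCR-ABL cells Cebpe differed by 0.10 (adjusted p = 0.672).

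Of the 10 measured transcription regulators of granule genes, Cebpe was the 1 that passed against BCR-ABL cells and the 1 that passed against BCR-RET cells. Between BCR-RET and BCR-ABL cells 0 of the 10 passed with limma, and 1 had an unadjusted p under 0.05, against 11.4% of all genes. Cebpa, the early myeloid C/EBP factor, differed by -0.02 between FGFR1OP-RET and BCR-ABL cells. Gfi1, a repressor needed for neutrophil maturation, differed by -0.01. Cebpd, the C/EBP delta gene, differed by 0.14 (adjusted p = 0.491) and Nfkbiz, a nuclear IkB protein that activates Lcn2, by 0.38 (adjusted p = 0.117).

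The primary granule genes, made earlier in maturation, were all measured (9 of 9). Against BCR-ABL cells 2 passed, both higher in FGFR1OP-RET cells, where 0.787% of all genes passed higher and 0.231% lower. An unadjusted limma p under 0.05 was reached by 6 that were higher and 2 that were lower, against 9.75% of all genes. The 2 lower genes were Ctsc and Cst7, each at -0.27. Prtn3, proteinase 3, was 1.27 ± 0.12 higher (limma adjusted p = 0.00234) and held without each array. Mpo, myeloperoxidase, was 1.55 ± 0.28 higher (adjusted p = 0.0347). That call was lost when any 1 of 7 arrays was omitted. The adjusted p became 0.125, 0.156 or 0.0708 on omitting BCR-ABL replicate 1, 2 or 3. It became 0.0744 or 0.0501 on omitting BCR-RET replicate 2 or 3, and 0.151 or 0.0721 on omitting FGFR1OP-RET replicate 2 or 3. Of 7 other processing choices, 6 kept the Mpo call. Its limma adjusted p there ran from 1.8e-05, with the replicate block, where 576 genes passed, to 0.109. The block pairs arrays by number, and FGFR1OP-RET arrays were not taken as paired.

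Between BCR-RET and BCR-ABL cells 0 of the 9 primary granule genes passed with limma, and 3 had an unadjusted p under 0.05, against 11.4% of all genes. Against BCR-RET cells Prtn3 rose by 0.65 (adjusted p = 0.0456) and Cst7, a cystatin, fell by 0.85 (adjusted p = 0.0108) in FGFR1OP-RET cells. The Prtn3 call was lost without 8 of the 9 arrays, all but BCR-ABL replicate 3, at adjusted p of up to 0.141. The Cst7 call was lost without BCR-RET replicate 2 (0.0605), BCR-RET replicate 3 (0.0556) or FGFR1OP-RET replicate 2 (0.0642). With the replicate block, where 1135 genes passed, the limma adjusted p was 0.000261 for Prtn3 and 0.000541 for Cst7. Both values rest on a pairing by number that was not taken for FGFR1OP-RET arrays. FGFR1OP-RET replicate 3 was the highest of its group for 8 of the 9 primary granule genes, against 31.9% of all genes, and replicate 2, the highest for all 10 later genes, was so for 1. BCR-RET replicate 3 was the highest for 6 of the 9, against 22.2% of all genes, and BCR-ABL replicate 3 for 8 of the 9, against 35.0%.

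Of 11 neutrophil surface receptors 8 were measured. Trem1, an activating receptor of neutrophils and monocytes, was the 1 that passed, 1.49 ± 0.24 higher in FGFR1OP-RET than in BCR-RET cells (limma adjusted p = 0.0216). It no longer passed when BCR-ABL replicate 2 was omitted (adjusted p = 0.0519), BCR-RET replicate 1 or 2 (0.0551 or 0.0844), or FGFR1OP-RET replicate 2 or 3 (0.101 or 0.0538). With the replicate block its limma adjusted p was 4.1e-05, in a fit where 1135 genes passed. That value rests on a pairing by number that was not taken for FGFR1OP-RET arrays. In the other comparisons 0 of the 8 passed, and an unadjusted p under 0.05 was reached by 3 in FGFR1OP-RET and 1 in BCR-RET against BCR-ABL cells. Between the RET fusions it was reached by 3 that were higher in FGFR1OP-RET cells, Trem1 among them, and by 1 that was lower. The lower gene was Ly6g, a neutrophil surface marker, at -0.37 (limma adjusted p = 0.136), with FGFR1OP-RET arrays wholly below BCR-RET arrays. Of the 15 receptors, partners and inhibitors of the 10 proteins, such as the metalloprotease inhibitor Timp1 and the calprotectin receptor Tlr4, 0 passed in any comparison with limma. An unadjusted p under 0.05 was reached by 2 of the 15 for FGFR1OP-RET against BCR-ABL, 1 for BCR-RET against BCR-ABL and 2 for FGFR1OP-RET against BCR-RET. Among all 19938 genes, 1943, 2271 and 2964 reached it in the same order, which is the reference for the surface receptors too.

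**Figure D4:**
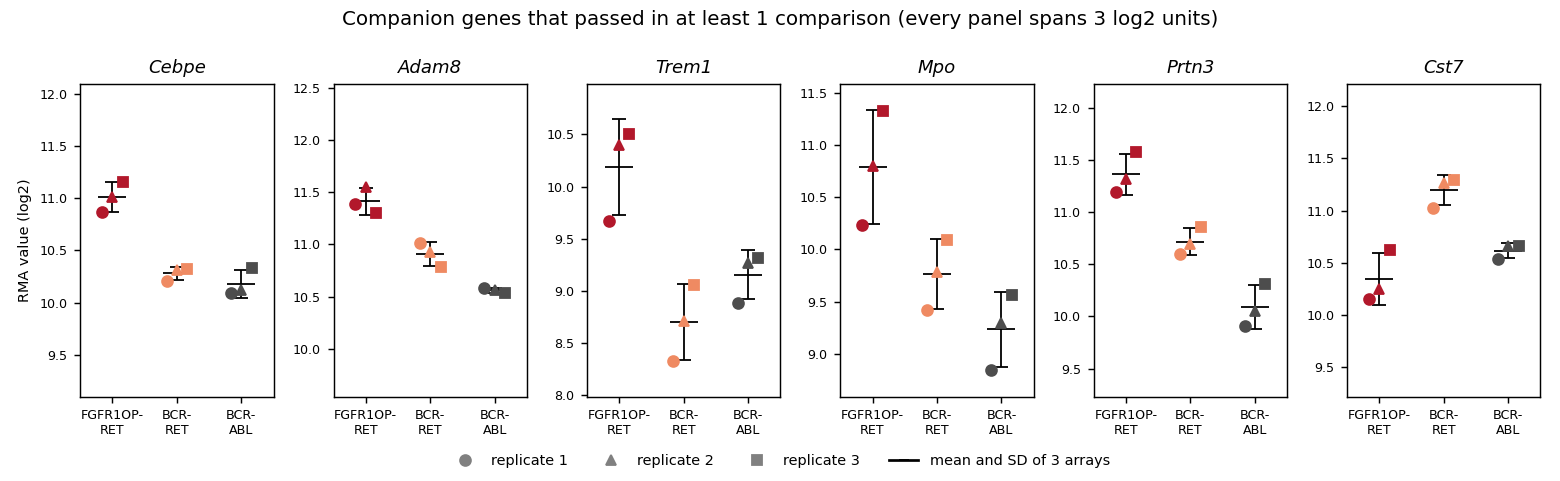
RMA values (log2, vertical axes, each spanning 3 units) of 6 companion genes on each array, with the mean and SD of 3 arrays as bars. Cebpe lies at 10.87 to 11.15 in FGFR1OP-RET cells, above the arrays of both other groups.

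Markers of other cell types were read beside these genes. Their counts are in the order FGFR1OP-RET minus BCR-ABL, BCR-RET minus BCR-ABL and FGFR1OP-RET minus BCR-RET. Among all 19938 genes an unadjusted p under 0.05 was reached by 1943, 2271 and 2964 in that order. Of 12 monocyte and macrophage markers 11 were measured and 0 passed in any of the 3 comparisons with limma (unadjusted p under 0.05 for 1, 0 and 1). Their mean log2 level lay at 7.45 to 7.58 over FGFR1OP-RET arrays, 7.54 to 7.61 over BCR-RET arrays and 7.50 to 7.54 over BCR-ABL arrays. Of 6 eosinophil markers 5 were measured and 0 passed (unadjusted p under 0.05 for 1, 2 and 1). Their mean level was 7.91 to 8.12, 8.05 to 8.31 and 7.73 to 8.05 in the same order of groups. Prg2, an eosinophil marker, was 1.10 ± 0.21 higher in BCR-RET than in BCR-ABL cells (limma adjusted p = 0.0719). That difference was larger than that of any of the 10 genes there, while the eosinophil marker Ccr3 was at -0.17. The 10 mast cell and basophil markers and 10 of 11 B lymphoid markers were measured, and 0 passed (unadjusted p under 0.05 for 1, 1 and 2 of the first list and 1, 1 and 1 of the second). The mean level of the B lymphoid list was 7.21 to 7.32 over FGFR1OP-RET, 7.30 to 7.33 over BCR-RET and 7.22 to 7.26 over BCR-ABL arrays. Of 8 erythroid markers 6 were measured (unadjusted p under 0.05 for 3, 3 and 1). All 6 were above 0 in both comparisons with BCR-ABL cells, as were 10122 and 12104 of the 19938 genes. Their mean level was 8.25 over FGFR1OP-RET, 8.29 to 8.39 over BCR-RET and 7.99 to 8.12 over BCR-ABL arrays. Gata1 rose in FGFR1OP-RET (0.45, limma adjusted p = 0.0423) and in BCR-RET cells (0.75, adjusted p = 0.00513) against BCR-ABL cells. Klf1, another erythroid regulator, rose by 0.47 in BCR-RET against BCR-ABL cells (adjusted p = 0.0440). The Klf1 call was lost without 8 of the 9 arrays (adjusted p up to 0.209), all but BCR-ABL replicate 1. The Gata1 call in FGFR1OP-RET cells was lost without 7 (up to 0.204), all but BCR-RET replicates 2 and 3. With the replicate block the limma adjusted p was 0.00332 for Klf1 and 0.0224 for this Gata1 call. FGFR1OP-RET arrays, which enter that fit, were not taken as paired by number. The 6 measured T and NK markers and the 4 stromal markers had 0 that passed (unadjusted p under 0.05 for 0, 1 and 2 of the first and 0, 0 and 1 of the second). The mean level of the T and NK list was 6.98 to 7.06 over FGFR1OP-RET, 7.17 to 7.24 over BCR-RET and 7.09 to 7.15 over BCR-ABL arrays. That of the stromal list was 8.09 to 8.19, 8.13 to 8.25 and 8.10 to 8.17. The part that any of these other cell types has in the levels of the 10 genes was not tested.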

How the data were processed

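The values are log2 RMA expression values per probe set, which the authors made with Affymetrix Expression Console, per the labels. Its version and probe set annotation were not given in the sources used here. Of 35557 deposited probe sets, 21789 had 1 symbol, 1621 several and 12147 none. The first were kept, and for 999 genes with several the probe set of highest mean was taken, which left 19938 genes. RefSeq (GRCm38.p6) changed 0 symbols. A value repeated on 3 or more arrays in 30.1% of genes, and in none of the 10 genes described. limma 3.58.1 (R 4.3.3, Python 3.11.15) was fitted to all 9 arrays with group as the term. It was also run on simulated data with independent noise, which does not cover deviations that same-numbered arrays share. The members, lists and tests were chosen with earlier results of these data known. All 10 members were named, with up to 4 passing genes per companion list and comparison, 5 set regulators and the 3 nearest genes of each member that passed. Same-numbered arrays correlated in their deviations at 0.617, 0.155 and 0.367 between BCR-RET and BCR-ABL, each over 0.1, so these were taken as paired. For FGFR1OP-RET, replicates 1 and 3 correlated at 0.38 and 0.40 with BCR-ABL and at 0.50 and 0.41 with BCR-RET. Replicate 2 was negative with either (-0.13 and -0.15), so this group was not taken as paired. The alternatives were the replicate block, other scalings, filters, probe set rules and spread estimates, fewer arrays and each array left out. Precision is limited by 3 arrays a group.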

Additional observations from a re-analysis of the deposited data

How the results depend on the processing

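In the order FGFR1OP-RET minus BCR-ABL, BCR-RET minus BCR-ABL and FGFR1OP-RET minus BCR-RET, 203, 117 and 265 genes passed. With the replicate block 576, 362 and 1135 passed, and 4, 2 and 2 of the 10 genes. With the block and only the 6 paired arrays of BCR-RET and BCR-ABL, chosen after seeing the data, 377 genes passed, and 6 of the 10. In the FGFR1OP-RET comparisons, same-numbered arrays correlated in their deviations for replicates 1 and 3 and were negative for replicate 2. The block there added Lcn2 (limma adjusted p = 0.00796) and Mmp9 (0.0180) against BCR-ABL, and Retnlg (0.0371) against BCR-RET. With only the 6 arrays compared, 94, 56 and 34 genes passed, and 1, 2 and 0 of the 10. Mmp8 (adjusted p = 0.108 against BCR-ABL) and Mmp9 (0.0622 against BCR-RET) were lost there, and Ltf (0.0259) and Mmp9 (0.0491) passed for BCR-RET minus BCR-ABL. With all probe sets as features, 121, 73 and 101 passed, and 0, 0 and 1 of the 10, with Mmp8 at 0.0864 and S100a9 at 0.0916 against BCR-ABL. For BCR-RET minus BCR-ABL 1 of the 10, Retnlg, passed with a trended and robust spread (0.0495), repeated quantile normalisation (0.0368) or median centring (0.0480). For FGFR1OP-RET minus BCR-ABL 3 passed, Lcn2 added, with the trended spread (0.0490), repeated quantile normalisation (0.0362) or dim genes left out (0.0433), the last with 9 of the 10 tested since Retnlg was dim. Leaving out each array gave 70 to 185, 28 to 114 and 86 to 194 genes, and 0 to 3, 0 to 2 and 1 to 2 of the 10. It turned the sign of differences near 0: Camp (-0.048 to 0.023) and Cd177 (-0.11 to 0.0064) for FGFR1OP-RET minus BCR-ABL, Camp (-0.0020 to 0.055) for BCR-RET minus BCR-ABL, and Lcn2 (-0.055 to 0.41), Ltf (-0.54 to 0.0009) and S100a8 (-0.11 to 0.20) for FGFR1OP-RET minus BCR-RET. The cause of these changes was not tested. The fits that leave arrays out also rest on fewer arrays, and calls were both lost and gained in them. Without detection calls, no limit of signal over background could be set.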
